A study of Arabidopsis thaliana with 12 samples.

Results

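Pericentromeric sites were the regions of SOB3-GFP binding whose centre lay in a fixed window around the centromere of each of the 5 nuclear chromosomes of Arabidopsis thaliana. The windows were 12 to 18 Mb on chromosome 1, 1 to 7 Mb on chromosome 2, 11 to 17 Mb on chromosome 3, 2.5 to 6 Mb on chromosome 4 and 9.5 to 14.5 Mb on chromosome 5. Overlapping peaks of the 9 deposited peak lists (1 bp was enough) were joined, which gave 28285 sites on the nuclear chromosomes and 28332 with the organelle sequences. Of the nuclear sites, 1565 (5.53%) lay in the windows, which hold 22.2% of the nuclear sequence, and the other 26720 lay on the arms. The windows were set by position alone, so no measured value decided which sites fell inside them. Every site, in the windows or on the arms, had passed peak calling in at least 1 list.

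SOB3 is an AT-hook protein of the AHL family that acts on hypocotyl growth in the light. The plants were whole seedlings of the Col-0 background that carried ProSOB3::SOB3-GFP, the SOB3 protein fused to GFP and driven by its own promoter, in the sob3-4 mutant, so all groups shared the transgene and the mutation and no plants without GFP were analysed here. They grew under an 8 h light, 16 h dark cycle and were harvested at ZT4 or ZT9 on day 5 of age, or at ZT24 on day 6, where ZT is the time in hours after lights on. The sample names give ZT24 where the harvest tag gives ZT0, that is, the dawn at the end of the night. Anti-GFP antibody was used for the ChIP-seq, with 3 ChIP samples and 1 input sample at each time point, 12 samples in all. The study calls the ChIP samples biological replicates. Each ChIP sample had 1 list of 20988 to 24827 nuclear peaks, of which 859 to 1225 lay in the windows. The study gives uniquely mapped reads only as a range over its samples, and the lists hold no read totals. The lowest local background solved from a list's own values, a sign of its depth, was 12.1 to 15.8 fragments per base.

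Pericentromeres are the stretches of heterochromatin on either side of a centromere. In Arabidopsis they are rich in transposons and pseudogenes, carry dense DNA methylation and hold few active genes. AHL proteins contact the minor groove of AT-rich DNA through the AT-hook, and SOB3 works together with transcription factors of the TCP family and in opposition to PIF factors, which promote elongation. The windows held 2501 protein-coding genes and 3494 annotated pseudogenes (94.4 and 132 per Mb), and the arms 24943 and 1349 (269 and 14.6 per Mb).

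The reference sequence at the highest ranked site of each window is shown as an example of a strong pericentromeric site. In each 150-base stretch, centred on the median summit and read 5′ to 3′ on the plus strand of TAIR10 (RefSeq, TAIR10.1), capitals mark letters that match a motif searched here. These were taken from the motifs that the study names, and are the TCP-like GGACCA or GGCCCA or GGTCCA, the PIF-like CACACG or CACATG or CACGCG or CACGTG, and the AT-rich AAATAAAA or AAATAATA or ATATAAAA or ATATAATA, all searched on both strands. The AT-rich letters are 1 of several motifs of A and T alone that the study names, and the others were not searched.
chr1:17295389-17295538, beside the long non-coding RNA gene AT1G07323: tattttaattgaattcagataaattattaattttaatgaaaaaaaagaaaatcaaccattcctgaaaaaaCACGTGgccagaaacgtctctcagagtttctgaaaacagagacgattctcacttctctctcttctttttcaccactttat
chr2:1050080-1050229, upstream of QUL2: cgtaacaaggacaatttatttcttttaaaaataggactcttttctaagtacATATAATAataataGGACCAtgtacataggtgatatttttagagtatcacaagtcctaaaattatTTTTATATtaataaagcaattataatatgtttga
chr3:11798792-11798941, upstream of AT3G30165: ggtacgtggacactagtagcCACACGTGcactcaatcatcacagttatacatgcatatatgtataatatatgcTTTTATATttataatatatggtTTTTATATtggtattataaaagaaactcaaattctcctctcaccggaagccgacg
chr4:2674911-2675060, upstream of ATK5: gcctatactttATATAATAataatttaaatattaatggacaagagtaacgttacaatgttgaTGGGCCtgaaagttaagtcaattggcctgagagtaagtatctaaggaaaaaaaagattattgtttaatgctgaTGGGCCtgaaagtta
chr5:9650096-9650245, in an intron of SFP1: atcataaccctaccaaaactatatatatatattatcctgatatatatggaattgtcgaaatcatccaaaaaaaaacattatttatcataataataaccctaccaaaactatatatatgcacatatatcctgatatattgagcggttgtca
The 5 stretches had a GC content of 22.7% to 34.0%. The chromosome 1 site held 1 PIF-like match, the chromosome 2 site 1 TCP-like and 2 AT-rich matches, the chromosome 3 site 2 PIF-like matches that overlap and 2 AT-rich matches, and the chromosome 4 site 2 TCP-like matches and 1 AT-rich match. The chromosome 5 stretch, itself rich in A and T, held no match to the letters searched. The summits of single lists lay within 36 to 61 bp of each other at 4 of these sites, but spread over 536 bp at the chromosome 2 site, so that some lay outside the stretch shown.

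SOB3-GFP sites were sparse near the centromeres on every chromosome. The windows held 59.1 sites per Mb against 288 on the arms. By chromosome the number was 81.3 per Mb on chromosome 1, 57.2 on chromosome 2, 62.0 on chromosome 3, 40.3 on chromosome 4 and 44.2 on chromosome 5, and each was below the 272 to 306 per Mb of the arms. The arms were thus 3.54 times denser than the window on chromosome 1 and 6.75 times denser on chromosome 4, with the other 3 chromosomes between these values. Within single lists, the windows held 32.4 to 46.2 peaks per Mb (median 39.5) and the arms 217 to 255 (median 233). The groups did not overlap, with means of 39.7 ± 4.43 and 236 ± 14.1 peaks per Mb (SD, n = 9 lists), a ratio of 0.168 (exact sign-flip permutation test over the 9 lists, two-sided, p = 0.00391, lower in 9 of 9). This is the smallest p that 9 lists can give. All lists share 1 genome, so this and the following sign-flip tests cover the spread between lists only.

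**Figure D1:**
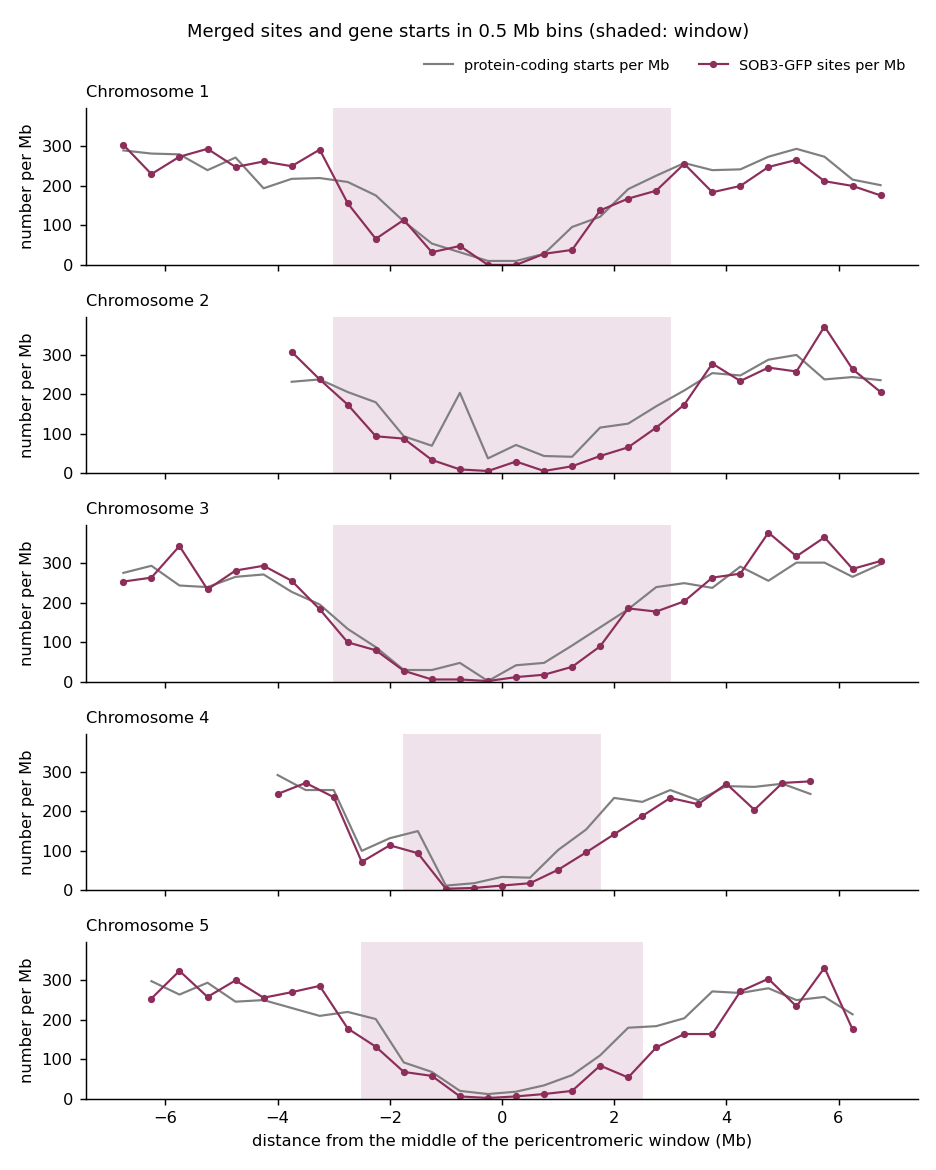
Merged SOB3-GFP sites per Mb (red points) and protein-coding gene starts per Mb (grey line) in bins of 0.5 Mb, by distance in Mb from the middle of the pericentromeric window of each chromosome, with the window shaded. Sites thinned towards the middle of each window, where bins of chromosome 2 held 6 to 30 sites per Mb, while bins on the arms reached over 200.

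Site numbers went on falling inside the windows. The 0.5 Mb just outside a window held more sites than the 0.5 Mb just inside it at 10 of 10 borders (57 to 146 outside, 27 to 94 inside). After the windows were narrowed by 1 Mb on each side, 0.5 Mb on chromosome 4, the inner 17.5 Mb held 515 sites (29.4 per Mb), and the outer 9 Mb that this removed held 1050 (117 per Mb). The ratio of peaks per Mb to the rest was 0.0858 in the narrowed windows and 0.288 in windows widened by 1 Mb on each side. The longest stretches with no site measured 1297 kb on chromosome 1 (chr1:14308573-15605659), 471 kb on chromosome 2 (chr2:3514717-3985946), 647 kb on chromosome 3 (chr3:13591789-14238776), 593 kb on chromosome 4 (chr4:2762637-3356035) and 591 kb on chromosome 5 (chr5:11030789-11621293). They held 9 to 19 protein-coding starts each and 80 to 134 pseudogene starts.

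The lists were made from uniquely mapped reads. In the reference, 88.0% of the positions in the windows and 98.2% of those on the arms began an 86-base stretch, the read length, that occurs once in the genome. Of the peaks, 97.4% ± 0.436 in the windows and 97.9% ± 0.150 on the arms lay in unique sequence (SD, n = 9 lists). Per Mb of such positions the ratio of windows to arms was 0.188 (p = 0.00391, exact sign-flip test, lower in 9 of 9 lists). The site-free stretches of chromosomes 1 to 5 were 38.2%, 92.3%, 68.4%, 82.0% and 89.8% unique. The bin from 3 to 3.5 Mb of chromosome 2 stood apart, with 204 protein-coding starts per Mb, 10 sites per Mb and 49.4% unique positions. Exact uniqueness of the reference is an upper bound on where reads could be placed.

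Gene content was lower in the windows as well, and the gap narrowed but remained when it was taken into account. Per protein-coding gene, the windows held 0.421 ± 0.0470 peaks and the arms 0.877 ± 0.0524 (SD, n = 9 lists), a ratio of 0.480 (exact sign-flip test, p = 0.00391, lower in 9 of 9). A peak centre lay within 1000 bp of 23.0% ± 2.40 of the protein-coding starts in the windows against 54.9% ± 3.73 on the arms. For pseudogenes the shares were 1.87% ± 0.242 of starts in the windows against 20.2% ± 2.07 on the arms. The ratio of windows to arms was thus lower for pseudogene than for protein-coding starts (0.0924 against 0.418), while the difference in percentage points was smaller (-18.4 against -31.9). Over the merged sites, 821 of 2501 protein-coding starts in the windows (32.8%) had a site within 1000 bp and 337 (13.5%) had one that was present in all 9 lists, against 69.1% and 37.6% on the arms. For pseudogene starts the shares with any site were 3.26% (114 of 3494) and 29.9% (404 of 1349). In the narrow sense of position, 177 of the 1565 pericentromeric sites (11.3%) had a pseudogene as the gene with the nearest start, and 1212 (77.4%) a protein-coding gene.

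Pericentromeric peaks were narrower than arm peaks. The median width in a list was 294 to 336 bp in the windows (median 312) and 339 to 393 bp on the arms (median 357), so every list's value in the windows was below every arm value. The mean difference was -46.8 ± 6.85 bp (SD, n = 9 lists; exact sign-flip test, p = 0.00391, narrower in 9 of 9). It was -49.1 bp among promoter peaks alone, -59.2 bp among intergenic peaks, -46.8 bp among peaks in unique sequence and -60.2 bp when peaks of like fold rank were compared. The difference was -87.6 bp when only peaks whose −log10 q reached 10 were kept. The background and the pileup at the summit, both solved from the deposited fold and p-value, were also lower in the windows in 9 of 9 lists. The median background was 17.8 ± 1.70 against 18.6 ± 1.77 fragments and the median pileup 51.3 ± 3.77 against 53.9 ± 4.17. The part of these in the width was not tested.

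The 3 widest pericentromeric sites were chr2:6893454-6896551 (3098 bp), past the end of AT2G15830, which encodes an uncharacterized protein, chr1:13116479-13119265 (2787 bp) and chr5:9652274-9654881 (2608 bp). The chromosome 1 site lay over the promoter of AT1G35560, annotated as a TCP family transcription factor, TCP23. The chromosome 5 site lay in SFP1, which encodes a sugar-porter family protein. All 3 were present in 9 lists, and arm sites reached 12992 bp.

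Fold enrichment hardly separated the windows from the arms. Fold, the ratio of pileup to local background at the summit, was ranked within its own list and is given as a percentile, with 100 the highest nuclear peak. The median rank in the windows was 47.2, 50.1 and 46.9 in the 3 ZT4 lists, 47.4, 49.5 and 51.5 at ZT9, and 47.8, 47.8 and 49.7 at ZT24, against 50.0 to 50.2 on the arms. It was lower than on the arms in 7 of 9 lists, with a mean difference of -1.43 ± 1.65 percentile points (exact sign-flip test, p = 0.0391). The call was lost (exact sign-flip test, p = 0.078) when any 1 of 5 lists was left out (ZT4 replicates 1 and 3, ZT9 replicate 1, ZT24 replicates 1 and 2), and the direction turned to +0.372 (p = 0.355) among peaks whose −log10 q reached 10. On chromosome 4 the pooled median in the window was 52.9, above the 50.1 of its arms, whereas the other 4 windows lay at 45.7 to 48.8. By pileup the gap was larger, at -5.07 percentile points (exact sign-flip test, p = 0.00391).

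Strong sites were present near the centromeres, but they were sparser than on the arms and a smaller share of the sites. Of the 1565 pericentromeric sites, 70 (4.47%) were in all 9 lists with a mean rank in the top 10%, against 1750 of 26720 (6.55%) on the arms. The windows cover 26.5 Mb and the arms 92.6 Mb. The highest, chr1:17295098-17295845, had a fold of 11.5 to 13.5 (median 12.5) and was placed between 1 and 11 from the top in every list. It lay 535 bp from the start of the non-coding AT1G07323 and 3357 bp from the nearest protein-coding start, that of WPP2, which encodes a protein targeted to the nuclear envelope.

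The second highest, chr1:12866599-12867354, lay 104 bp from the start of GF14 PHI, a 14-3-3 protein gene, with a fold of 9.13 to 13.9 and places 2 to 38. The next site, chr1:13076208-13076898, lay 111 bp from AT1G35513, a transcribed pseudogene related to isochorismate synthase, with a fold of 7.81 to 12.02. The SFP1 intron site, chr5:9649526-9651140, had a fold of 7.94 to 11.3, and chr3:11798445-11799407 upstream of AT3G30165, a zinc ion-binding protein gene, a fold of 7.82 to 12.1. These 5 sites came from 3 chromosomes and were placed no lower than 143 in any list.

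The other 5 of the 10 highest sites lay upstream of ALDH3H1 (chr1:16800001-16801470), which encodes an aldehyde dehydrogenase, past the end of AT1G35560 (chr1:13115132-13116288), upstream of BZO2H3 (chr5:10798819-10801173), which encodes the bZIP factor bZIP63, upstream of the cytochrome P450 gene AT3G44970 (chr3:16429585-16431219), and upstream of the GT2-like factor gene AT5G28300 (chr5:10296527-10297494). Their median folds were 8.10 to 9.69. TCP23 thus had a site on either side, the wide promoter site and this one past its end. The highest sites of chromosomes 2 and 4 ranked lower. The site chr2:1049796-1050992, 312 bp from QUL2, a paralog of the pectin gene QUASIMODO2, had a fold of 5.31 to 8.90, and chr4:2674723-2675208, 98 bp from ATK5, a spindle kinesin gene, a fold of 4.92 to 9.43. At the other end, the lowest of the sites present in all 9 lists was chr1:17424287-17424664, 3 bp from the start of RBP47C, an RNA-binding protein gene, with a fold of 1.70 to 2.38.

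**Figure D2:**
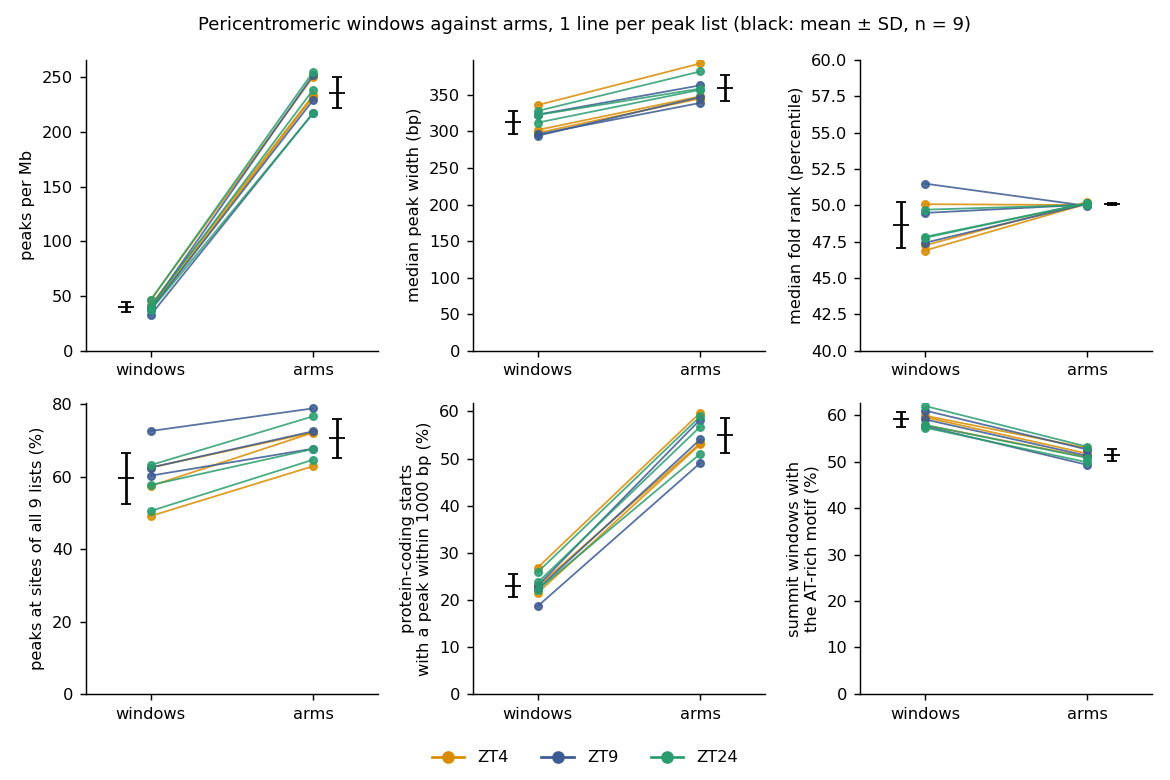
Measures in the pericentromeric windows and on the arms, with 1 line per peak list coloured by time point, and the mean ± SD over the 9 lists in black. Density (peaks per Mb), width (bp), the share of peaks at sites of all 9 lists (%) and the share of protein-coding starts with a peak (%) were lower in the windows in every list, the AT-rich motif share (%) was higher in every list, and the lines of the fold rank (percentile, axis from 40 to 60) crossed.

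Pericentromeric sites were found again in other lists less often. Of the 1565 sites, 566 (36.2%) turned up in each of the 9 lists and 253 (16.2%) in a single list, against 47.5% and 12.5% of the arm sites. The share in all 9 lists was lower than on the arms on each chromosome (33.6% to 39.7% against 46.2% to 48.0%). Per list, 49.1% to 72.6% of the window peaks (median 60.3%) lay at such sites, against 62.9% to 78.9% of arm peaks (median 72.2%). The ranges overlapped between lists, but within each list the windows were lower, by 11.1 ± 3.10 percentage points on average (exact sign-flip test, p = 0.00391, 9 of 9). At like fold rank the difference was -10.3 points, and in unique sequence -11.2 points. It was smaller among peaks of higher significance, with presence counted over the peaks kept. Where −log10 q reached 5 it was -7.94 points, and where it reached 10 it was -4.17 points (56.0% against 60.1%), lower in 9 of 9 lists each time. All lists were used to define these sites, so the 9 values are not independent of each other.

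In percentage points the gap was widest among sites of middling rank, a measure with little room at the highest and lowest ranks. Of the sites with a mean rank of 80 to 100, 100% were in all 9 lists in the windows (169 sites) and on the arms (3564 sites), and of those at 60 to 80 the shares were 97.8% and 99.0%. At 40 to 60 they were 58.1% (158 of 272) and 78.1% (3551 of 4545), and at 20 to 40 they were 11.9% and 22.3%. In the lowest bin, 0 to 20, they were 0.471% and 1.14%. Present at a time point meant in at least 2 of its 3 lists. By this rule 1211 pericentromeric sites had at least 1 time point, and 760 (62.8%) had all 3, against 72.0% on the arms. The inner and outer parts of the windows were alike in this, with 62.2% and 63.0%.

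**Figure D3:**
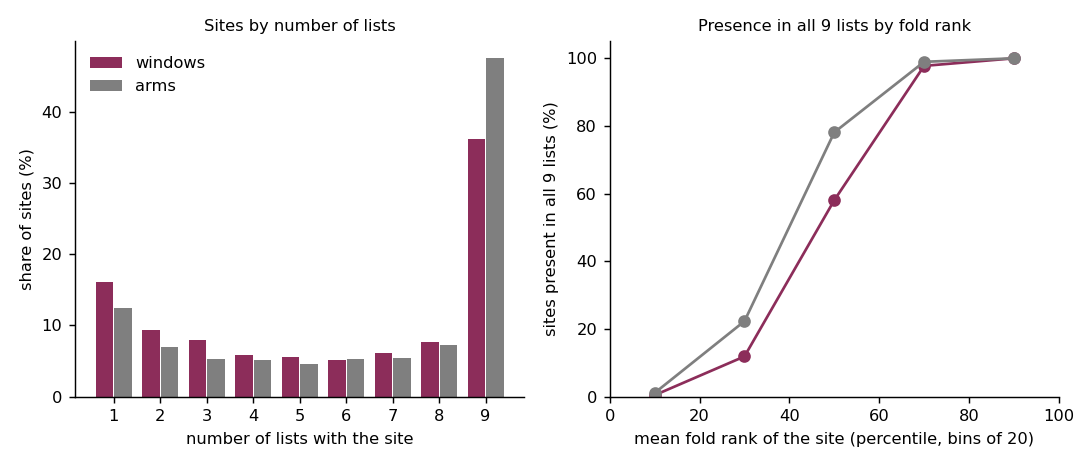
Left, the share of sites (%) by the number of peak lists that hold them, for windows and arms. Right, the share of sites present in all 9 lists (%) by mean fold rank (percentile, bins of 20), where the windows lay at 58.1% and the arms at 78.1% in the bin from 40 to 60 and both reached 100% in the highest bin.

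By position in genes, the windows had fewer promoter peaks and more intergenic ones. The class promoter-TSS ran from 1000 bp before to 100 bp after an annotated start, and the class TTS from 100 bp before to 1000 bp after the end of a transcript. In the windows 58.6% to 61.1% of a list's peaks were promoter-TSS (mean 59.6%), against 62.1% to 64.1% on the arms (mean 63.3%), and 15.4% to 17.1% were intergenic (mean 16.2%), against 13.1% to 14.2% (mean 13.6%). Neither pair of ranges overlapped. Both differences passed the test (-3.70 and +2.59 percentage points, exact sign-flip test with Benjamini-Hochberg adjustment over 5 classes, adjusted p = 0.00651). Exon peaks (5.28% against 4.64%, adjusted p = 0.00651) and intron peaks (3.70% against 3.44%, adjusted p = 0.0146) were slightly more common in the windows, and TTS peaks (15.22% against 15.004%) did not pass the test (adjusted p = 0.445). With protein-coding genes alone as the annotation, the TTS difference was -0.993 points (exact sign-flip test, adjusted p = 0.00651). Of the bases themselves, 25.6% in the windows and 33.8% on the arms were promoter-TSS and 21.1% and 8.16% intergenic, so peaks in both parts lay in promoters more often than bases did. Intergenic peaks were below the share of bases in the windows but above it on the arms. Exons made up 30.4% and 25.4% of the bases and introns 5.41% and 12.3%, above the share of peaks in both parts.

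The sequence under the summits differed too. Over the 300 bp around the summit, the AT-rich motif, as spelled out above and without the study's other motifs of A and T alone, was present in 59.1% ± 1.62 of the window peaks and 51.4% ± 1.35 of the arm peaks (SD, n = 9 lists), higher by 7.74 points in 9 of 9 lists. The TCP-like motif was present in 32.2% ± 1.23 against 35.7% ± 0.636, lower by 3.47 points, and the PIF-like motif in 33.1% ± 1.04 against 35.3% ± 0.556, lower by 2.17 points, again in 9 of 9 lists (exact sign-flip test, Benjamini-Hochberg adjustment over 3 motifs, adjusted p = 0.00391 each). Of all 300 bp stretches of the windows, 24.4% held the AT-rich, 14.4% the TCP-like and 20.2% the PIF-like motif, against 25.5%, 16.2% and 21.5% on the arms. All 3 motifs were therefore more common under summits than in all 300 bp stretches of the same part, in the windows as on the arms. Those stretches include the summits and were not matched for GC content or position in genes.

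The median GC content of the summit stretches was 31.3% in the windows and 32.4% on the arms, lower in 9 of 9 lists (exact sign-flip test, p = 0.00391), although all 300 bp stretches had a mean of 36.3% and 36.0%. In exact sign-flip tests within 10 bins of summit GC content, an alternative chosen after the data were seen, the AT-rich difference was 3.77 points (p = 0.00391), the TCP-like one -0.670 (p = 0.0156) and the PIF-like one -0.00439 (p = 0.996). The PIF-like difference was thus not seen among summits of like GC content. Among promoter-TSS peaks the AT-rich motif was present in 59.4% against 50.7% and the TCP-like motif in 29.8% against 36.4%.

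Between time points the share of peaks that fell in the windows moved little. It was 5.02%, 4.83% and 4.46% in the ZT4 lists, 4.30%, 4.46% and 4.09% at ZT9, and 4.93%, 4.57% and 4.63% at ZT24. All ZT9 values lay below those of both other time points, the highest only just below the lowest ZT4 value, with means of 4.77% ± 0.284, 4.28% ± 0.183 and 4.71% ± 0.192 (SD, n = 3 each), but the F ratio did not pass the exact permutation test over all partitions of the samples (p = 0.0929, two-sided by construction). In the same test with 1 list left out, p ran from 0.0214 to 0.268. It was 0.0214 without ZT4 replicate 3, the lowest at that time point. The fold rank of window peaks did not pass the permutation test either (p = 0.582), with means of 48.1, 49.5 and 48.4, although it did where −log10 q reached 5 (p = 0.025, means of 47.8, 49.7 and 47.4).

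**Figure D4:**
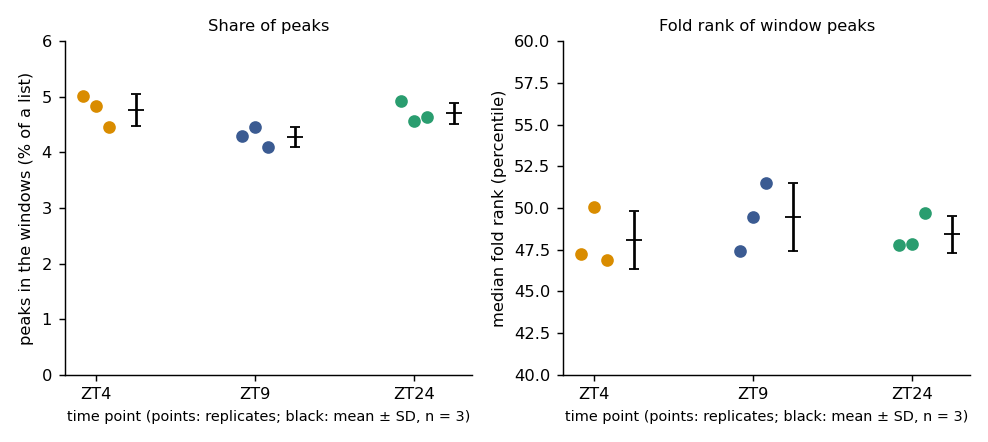
Share of a list's peaks that lay in the pericentromeric windows (%, left) and median fold rank of those peaks (percentile, right, axis from 40 to 60) at the 3 time points, with 1 point per replicate and the mean ± SD (n = 3) in black. The ZT9 shares, 4.09% to 4.46%, were the lowest, and the fold ranks of the time points overlapped.

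Few sites belonged to 1 time point. The 3 replicates of a time point, and no other list, shared 13 pericentromeric sites (0.831%), beside 185 of the arm sites (0.692%). Of the pericentromeric ones, 10 were at ZT4 (0.639%, against 0.277% on the arms) and 3 at ZT24 (0.192% against 0.228%). At ZT9 there were 0 of 1565, against 0.187% on the arms. Taking sites as independent, which was not tested, 0 of 1565 allows a share of up to 0.192%. The 5 of highest rank were chr5:13833333-13833620 upstream of AT5G35640, chr3:16073439-16074137 at the end of AT3G44450, chr1:16710536-16710870 upstream of the STAY-GREEN-like gene AT1G44000 and chr1:16666923-16667171 in the pseudogene AT1G43940, all ZT4, and chr3:15702933-15703165 within AT3G43850 at ZT24. They were weak, with mean ranks of 29.0 to 44.6 and median folds of 2.32 to 2.65. Missing only at ZT9, and present in the other 6 lists, were 11 sites (0.703%, against 0.438% on the arms).

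For the 566 pericentromeric sites of all 9 lists, ranked fold was tested between the time points with limma, in 1 fit with all 13251 such nuclear sites. Adjusted p-values were under 0.05 for 72 pericentromeric sites (12.7%), against 14.6% of all sites tested. From ZT4 to ZT9, 16 rose (2.83%, against 4.09% of all sites) and 27 fell (4.77% against 4.23%). From ZT4 to ZT24, 16 rose (2.83% against 2.38%) and 18 fell (3.18% against 2.62%). From ZT9 to ZT24, 25 rose (4.42% against 4.63%) and 12 fell (2.12% against 4.35%). In the F test the pericentromeric sites were therefore called about as often as sites at large. In the single contrasts, calls with the higher rank at ZT9 were less common among them than at large. Ranked by the recovered pileup, 1 pericentromeric site was called (0.226% of all sites were), and by −log10 p 11 were (1.80% of all sites). Leaving out a list gave 39 to 53 calls (6.89% to 9.36%, against 7.27% to 9.92% of all sites tested). There were 39 without ZT24 replicate 1 or 2 and 43 without ZT4 replicate 1 or 2. Without ZT9 replicate 1 or ZT24 replicate 3 there were 47.

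The lowest adjusted p belonged to chr3:12450000-12450672, in the intron of ERD5 (AT3G30775), the proline dehydrogenase that starts the breakdown of proline. Its fold rank was 89.6, 84.5 and 90.5 for ZT4, 51.4, 48.8 and 53.6 for ZT9, and 95.1, 95.8 and 94.9 for ZT24. All ZT9 values were below those of the other 2 time points, with folds of 2.62 to 2.88, against 3.98 to 5.42 (ZT4) and 5.87 to 6.37 (ZT24) (limma F test, adjusted p = 0.00397; ZT9 against ZT4, adjusted p = 0.00527). A second changed site, chr3:12456854-12457471, lay on the same stretch, 5607 bp from the start of ERD5 and 1397 bp from that of AT3G00620, a non-coding RNA gene. There the rank was 40.6, 11.8 and 27.5 for ZT4, 72.0, 75.7 and 80.0 for ZT9, and 81.9, 81.5 and 84.8 for ZT24 (adjusted p = 0.00439). It was low at ZT4 and high at both other times, unlike the intron site, and it was the 1 pericentromeric site that was also called by pileup (adjusted p = 0.0452).

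The reference under both summits, shown because these neighbours changed in different ways, follows with the same capitals.
chr3:12450272-12450421, intron of ERD5: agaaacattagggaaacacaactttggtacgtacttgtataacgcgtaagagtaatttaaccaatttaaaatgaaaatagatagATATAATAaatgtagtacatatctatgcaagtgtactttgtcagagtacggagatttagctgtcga
chr3:12457144-12457293, near AT3G00620: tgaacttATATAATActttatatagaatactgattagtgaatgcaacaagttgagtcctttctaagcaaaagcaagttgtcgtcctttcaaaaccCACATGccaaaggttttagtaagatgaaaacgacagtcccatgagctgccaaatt
Both held 1 AT-rich match, and the stretch near AT3G00620 also held 1 PIF-like match.

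The other 3 of the 5 lowest adjusted p-values fell on 3 chromosomes. At chr1:13147529-13148297, upstream of AT1G35614, which encodes an uncharacterized protein, the rank was 53.2, 31.6 and 48.5 for ZT4, 9.58, 4.17 and 3.94 for ZT9, and 59.7, 79.7 and 58.3 for ZT24 (adjusted p = 0.00444). ZT9 was again the low point. At chr2:1642561-1643285, upstream of AT2G04690, a gene of the pyridoxamine phosphate oxidase family, the rank was 33.7, 4.63 and 0.36 for ZT4, 72.5, 72.3 and 63.7 for ZT9, and 78.2, 69.1 and 73.2 for ZT24 (adjusted p = 0.0059). At chr5:9946471-9947093, upstream of the F-box gene AT5G27920, it was 46.4, 29.1 and 41.0 for ZT4, 86.7, 69.9 and 77.6 for ZT9, and 84.8, 76.5 and 81.1 for ZT24 (adjusted p = 0.00591). Both were low at ZT4 only. With the recovered pileup as the ranked value, the limma adjusted p-values of the intron site and these 3 were 0.103, 0.341, 0.306 and 0.0921. These calls thus rest on fold, in which the local background enters. Each time point had 1 input, which its 3 lists appear to share. A difference between inputs therefore cannot be told apart from one between time points, in this limma test or any other comparison of time points.

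**Figure D5:**
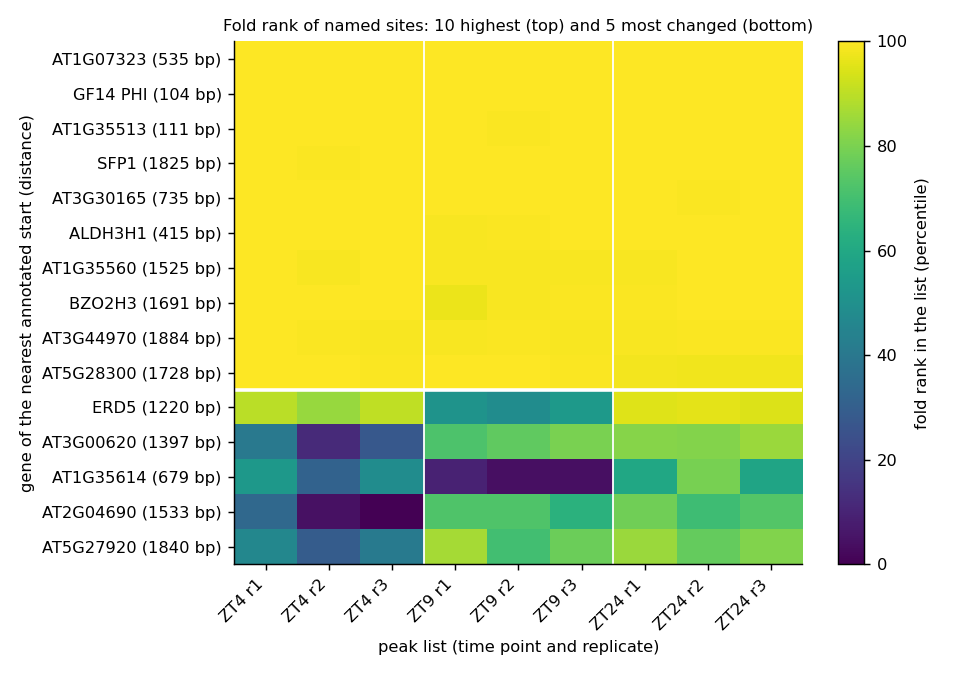
Fold rank (percentile, colour) of 15 named pericentromeric sites in the 9 peak lists, with the 10 highest sites above the white line and the 5 with the lowest adjusted p below it, labelled by the gene of the nearest annotated start and its distance in bp. The upper sites were near 100 in every list, and of the lower ones the ERD5 and AT1G35614 sites were lowest at ZT9 and the other 3 at ZT4.

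The genes of the windows with a known function were described from a list of 32, picked for their roles and not as typical genes. A site centre lay within 1000 bp of the start of 25, and for 19 of these the site was in all 9 lists, beside the 32.8% and 13.5% of all protein-coding starts in the windows. Of the 19, 1 was called between time points, beside 12.7% of the pericentromeric sites and 14.6% of all sites tested. Among 3 photoreceptor genes, the blue light receptor CRY1 had a site 549 bp upstream of its start (chr4:5721889-5724315), present in 9 lists with a rank of 62.4 to 96.9 (median fold 5.16), while PHOT1, the phototropin of directional growth, had one in 4 lists with ranks of 16.4 to 33.3. No site lay within 1000 bp of the red light receptor gene PHYC, and the nearest, 8997 bp away, was in 4 lists.

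Of 9 hormone genes, 8 had a site and 7 had one in all lists. The highest was at NIT1, a nitrilase linked to auxin synthesis (rank 88.5 to 98.3, mean 95.7), and the lowest at JAZ4, a repressor of jasmonate signalling (7 lists, mean 28.8). Of 7 growth genes, 6 had a site, from SEP4, a MADS-box floral factor (mean rank 95.7), to SEU, a transcriptional co-repressor (8 lists, mean 41.2). Of 4 chromatin and silencing genes, 2 had a site in all lists, AGO1, the core protein of RNA silencing (rank 78.9 to 97.4), and DAYSLEEPER, a gene derived from a transposase (rank 76.4 to 92.3). The site nearest to ARP6, a subunit of a chromatin remodelling complex, lay 143301 bp from its start, and that nearest to DDB1A, part of a ubiquitin ligase, 5064 bp away.

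Of 9 stress and metabolism genes, 7 had a site and 4 had one in all lists. The highest lay 26 bp upstream of the start of BZIP63, which is BZO2H3, a bZIP factor of the response to low energy. Its rank was 95.9, 92.3 and 95.8 for ZT4, 98.9, 98.7 and 98.2 for ZT9, and 99.5, 99.7 and 99.2 for ZT24. All ZT4 values were below the others (limma F test, adjusted p = 0.0221). The call ended without ZT4 replicate 2 (adjusted p = 0.0607) or ZT24 replicate 2 (0.0568), and with ranks of −log10 p (0.264) or pileup (0.833). The site upstream of this one among the 10 highest, chr5:10798819-10801173, also passed (limma F test, adjusted p = 0.0325). There the ZT4 ranks were highest, at 99.92, 99.96 and 99.95, against 97.0, 99.1 and 99.4 for ZT9 and 99.5, 99.7 and 99.8 for ZT24. The adjusted p of this upstream site was 0.0366 to 0.0789 when a list was left out. Its call held only where that list was ZT9 replicate 3 or ZT24 replicate 3. Its adjusted p was 0.191 by −log10 p and 0.876 by pileup. The lowest was at BZIP60, a factor of the unfolded protein response, which was in 8 lists with ranks of 1.75 to 36.0. No site lay within 1000 bp of PR1, a defence gene, or SOS2, a kinase gene of salt tolerance.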

How the data were processed

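The authors mapped 86-base single reads to TAIR10 with Bowtie, kept unique reads and called peaks with MACS2 in each replicate against input, without pooling. Their methods do not name the input used for each list. A supplement speaks of respective inputs, which with 1 input per time point points to the input of that time point. Per the deposited lists, column 7 is the fold enrichment, a ratio of pileup to local background, columns 8 and 9 are −log10 p and −log10 q, and column 5 is a score that was not used. Fold was ranked within a list. Pileup and background were solved from fold and p, and a whole-number pileup fitted within 0.001 for 100% of peaks. Annotation and sequence were RefSeq TAIR10.1. The centre of a peak placed it in the windows or on the arms.

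Windows and arms were compared with exact two-sided sign-flip permutation tests over the 9 lists (smallest p 0.00391), and time points with an exact permutation test of an F ratio over 280 partitions (smallest p 0.00357). Ranks of sites in all 9 lists became normal scores for limma 3.58.1 in R 4.3.3 (Benjamini-Hochberg, 0.05), a fit tested on simulated data. Named sites were the 10 of highest mean rank, the highest of each window, the 5 with the lowest adjusted p, the 3 widest and up to 5 of 1 time point, and for the gene list the 3 light genes and the highest and lowest of each other group with a site within 1000 bp. The site at RBP47C and the genes with no such site were added after their values were seen. Members and lists were chosen with earlier results of these data known. Alternatives changed thresholds, windows, the merge distance, the ranked value and the lists used.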

Additional observations from a re-analysis of the deposited data

Results flagged for a closer look

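The difference between windows and arms in the share of TTS peaks was not the same at the 3 time points. The ZT9 lists gave -0.699 ± 0.474 percentage points, the ZT4 lists 0.527 ± 0.162 and the ZT24 lists 0.819 ± 0.673 (SD over 3 lists). An exact permutation test of the F ratio gave p = 0.0179. This was 1 of 13 measures tested in this way, and the adjusted p over them was 0.232, so it did not pass the correction.

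Outside the nuclear chromosomes, which all comparisons use, 296 peaks lay on the organelle sequences, in 8 of the 9 lists. No peak list of a control without GFP was analysed here.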

How the results depend on the processing

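Of the 207 comparisons of a main result with an alternative, 189 were counted as unchanged. Between windows and arms this meant the same direction and the same side of the threshold. For the permutation tests by time point it meant the same side of the threshold. For the number of changed sites it meant a count within a set factor of the main one. Fold rank turned to 0.372 where −log10 q reached 10, and ranged from -1.80 to -1.21 when a list was left out (p from 0.0156 to 0.078). The TTS difference turned to -0.993 with protein-coding genes only. The PIF-like difference became -0.00439 within bins of GC content. For the share of peaks by time point, p ran from 0.0214 to 0.268 without a list. The fold rank by time point had p = 0.025 in the exact permutation test where −log10 q reached 5. Of the 72 sites changed between time points, 11 were called by −log10 p rank and 1 by pileup rank. Without a list, 39 to 53 pericentromeric sites were called (6.89% to 9.36%, against 7.27% to 9.92% of all sites tested). Of these, 36 to 44 were among the 72. The cause was not tested, except that leaving out a list leaves fewer samples. In the ranks of sites, samples of like replicate number showed no pairing (correlations of -0.045 to 0.058). Ranks are set within a list, so these correlations cannot show differences in peak number. Window peaks per Mb fell from replicate 1 to replicate 3 (ZT4 46.2, 41.4, 37.9, ZT9 39.5, 37.4, 32.4, ZT24 46.2, 39.9, 36.8). Arm peaks per Mb fell in the same order (ZT4 250, 233, 232, ZT9 252, 229, 217, ZT24 255, 238, 217). The percentage of peaks at sites of all 9 lists rose in that order for each time point, in the windows as on the arms. The cause of this order was not tested. With the replicate block, 55 sites were called (10.6% of all sites were), 54 of them among the 72, p was 0.0833 for the share and 0.583 for the rank, and the 5 sites named kept an adjusted p of 0.0129. Without a list their adjusted p ran from 0.00923 to 0.0228. Read depth per list was not available to these tests.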
